A study of Homo sapiens with 15 samples.

Results

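The G1 cyclins, their kinases and the CIP/KIP inhibitors were followed as a set of 10 genes in A673 cells: CCND1, CCND2, CCND3, CCNE1, CCNE2, CDK4, CDK6, CDKN1A, CDKN1B and CDKN1C. The members were chosen by name, by a rule that used none of their values, though earlier results of these data were known. All 10 were found among the 57820 gene identifiers of the count table. All 10 also averaged at least 1 count per library, which made them part of the 28793 genes tested. A673 is an established Ewing sarcoma cell line that carries the fusion transcription factor EWS/FLI, and RNA-seq was performed on 5 conditions with 3 libraries each, 15 in all. The comparison with EWS/FLI-depleted cells asked which transcripts each form of EWS/FLI raised or lowered. Every condition received a retroviral shRNA on day 1 and a second retrovirus on day 5, was kept in puromycin at 2 µg/mL and then also in hygromycin B at 400 µg/mL, and was harvested on day 16. In iLuc the shRNA was directed at luciferase and the second virus was an empty vector, so that endogenous EWS/FLI (endo-EF) was left in place. In iEF the shRNA was directed at EWS/FLI, again with an empty vector. WT-EF, Δ22 and DAF carried the iEF shRNA together with a cDNA for wildtype EWS/FLI, for delta22 (which lacks most of the EWS domain) or for DAF (an EWS domain with tyrosines changed to alanines). All conditions came from 1 cell line. The labels number the libraries from 1 to 3 and do not say what a number stands for. The study outlines a replicate as a course of knockdown, rescue and harvest and treated the replicate sets as batches. The replicate number was a block in the fit, which takes out differences shared by a whole set. The p-values thus measure how far differences between conditions varied from set to set within 1 cell line.

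In the G1 phase, D-type cyclins bind CDK4 or CDK6 and E-type cyclins bind CDK2, and the active kinases phosphorylate the retinoblastoma protein, which then releases E2F transcription factors to switch on the genes of DNA replication. CIP/KIP proteins, p21 from CDKN1A, p27 from CDKN1B and p57 from CDKN1C, bind cyclin-CDK complexes and mostly inhibit them, while INK4 proteins act on CDK4 and CDK6 alone. These regulators are often controlled at the level of protein stability, which RNA-seq does not see.

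The libraries held between 28659475 and 41859880 counts (median 32943231). FLI1, whose 3′ part is shared by the fusion, was counted at 47.8 to 52.4 CPM (counts scaled by library total and TMM factor) in iLuc and at 12.9 to 15.5 CPM in iEF (edgeR adjusted p = 7.93e-09). It was at 16.0 to 18.7 CPM in WT-EF, 24.4 to 36.2 CPM in Δ22 and 22.1 to 27.3 CPM in DAF, where reads of the cDNA and of the endogenous transcript were not separated. Of 8 Ewing sarcoma markers 7 averaged at least 1 count, and their summed level was 656 to 740 CPM in iLuc, 73.6 to 91.3 CPM in iEF, 401 to 602 CPM in WT-EF, 85.5 to 138 CPM in Δ22 and 144.1 to 249.5 CPM in DAF. The marker CD99 was counted at 0 to 3 reads in each library. Whether its transcript was absent or its reads went uncounted was not tested. Of 9 markers of epithelial, blood and endothelial cells 8 were in the table and 5 averaged at least 1 count, with summed levels of 0.733 to 2.16 CPM over all libraries. Since these were bulk samples, a difference in a transcript per cell and a difference in the share of cells that carried it (for example cells in another phase of the cycle) cannot be told apart.

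**Figure D1:**
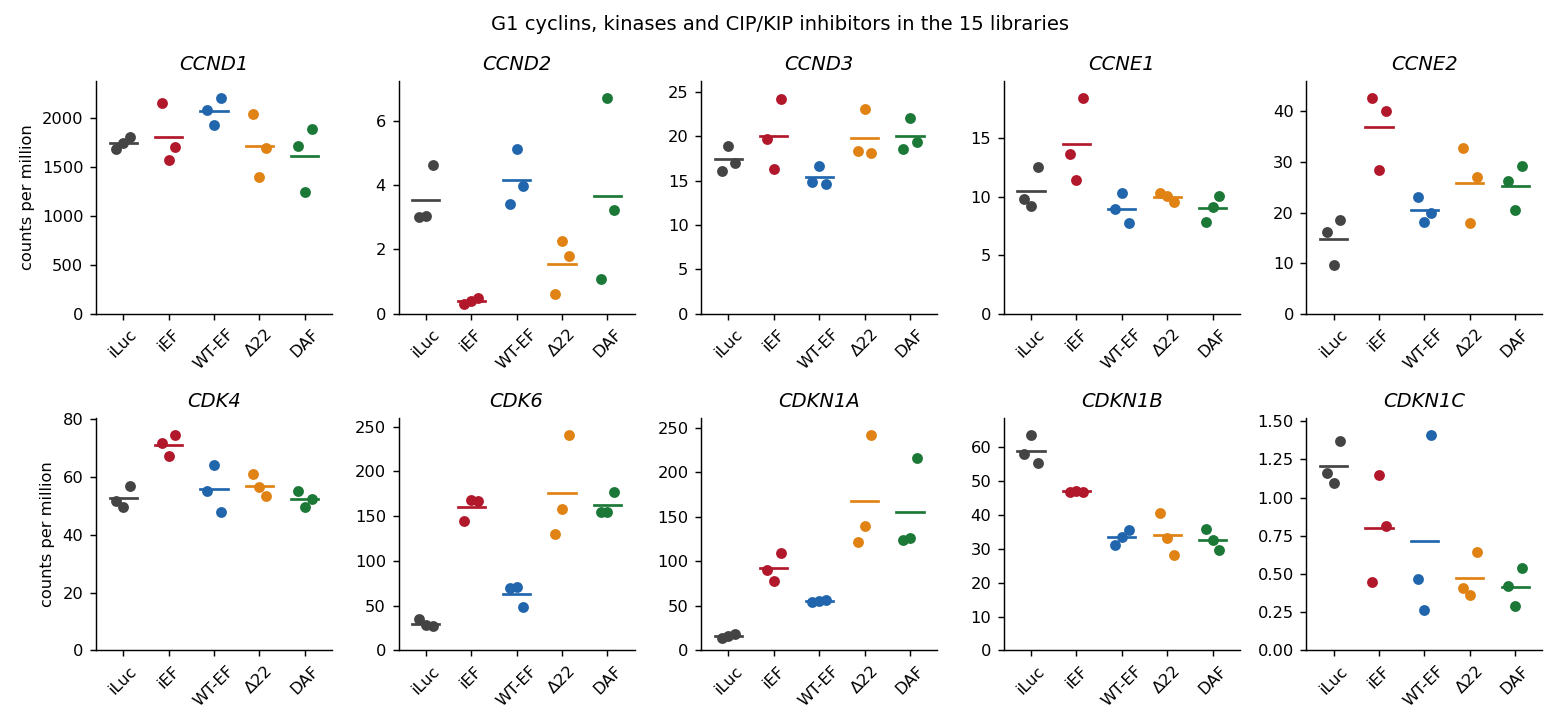
CPM (y axis, linear, from 0, with TMM-scaled library totals) of the 10 members in each of the 15 libraries; points are libraries 1 to 3 from left to right within a condition and bars are means. CDK6 and CDKN1A were lowest in the 3 iLuc libraries and next lowest in the 3 WT-EF libraries, CCND2 was lowest in the 3 iEF libraries, and CCND1 overlapped between neighbouring conditions.

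With edgeR's quasi-likelihood test and the Benjamini-Hochberg adjustment over all 28793 genes, a gene was called at an adjusted p below 0.05. In iLuc against iEF 2 members were called higher and 5 lower, against a background of 19.5% of all genes called higher and 22.1% called lower. In WT-EF against iEF 1 member was called higher and 7 lower, where 12.9% and 17.0% of all genes were. In Δ22 against iEF 1 member was higher and 0 were lower, where 0.472% and 0.830% of all genes were. In DAF against iEF 2 members were higher and 4 lower, where 5.00% and 6.19% of all genes were. With library totals and no TMM the members gave 2 higher and 3 lower in iLuc, 2 and 4 in WT-EF, 1 and 0 in Δ22 and 2 and 4 in DAF. Of all 28793 genes, 7865 were then called higher and 5102 lower in iLuc, 6376 and 3412 in WT-EF, 169 and 173 in Δ22 and 1941 and 1290 in DAF. By both scalings the share of the 10 members called lower was above that of all genes in iLuc, WT-EF and DAF. These comparisons all use the same 3 iEF libraries. The share of all genes depends on the filter on low counts. With the stricter filterByExpr, 5992 of 19451 genes were called lower in iLuc, 4768 in WT-EF and 1986 in DAF. Whether the members differ from genes of like count was not tested. Among the comparisons between the other conditions, WT-EF against iLuc gave 3 members higher and 1 lower, where 10.7% and 9.03% of all genes were called. WT-EF against DAF gave 1 higher and 2 lower, with background shares of 12.4% and 16.1%, so that these counts were close to the background. WT-EF against Δ22 also gave 1 higher and 2 lower, with shares of 13.1% and 17.2%. DAF against Δ22 gave 0 members in either direction by edgeR, where 0.948% of all genes were called higher and 0.379% lower, and 1 member, CCND2, had an unadjusted p below 0.05 in that test. Single libraries moved some of these counts. In WT-EF against iEF 5 members were called without iEF replicate 3 or WT-EF replicate 3. In Δ22 against iEF 0 were called without iEF replicate 2 or 3 or Δ22 replicate 2 or 3, 2 without iLuc replicate 2 or 3, WT-EF replicate 1 or DAF replicate 1 or 2, and 4 without WT-EF replicate 3 or Δ22 replicate 1. In DAF against iEF 3 were called without iEF replicate 1 and 2 without DAF replicate 2 or 3. Over the 8 comparisons CDKN1A was called in 7, CDK6 in 5, CCND2, CCNE2 and CDKN1B in 4 each, CCNE1 and CDK4 in 3 each, CCND1 and CCND3 in 1 each and CDKN1C in 0.

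CCND1, the D-type cyclin on chromosome 11 (GRCh37, chr11:69455924-69469242, plus strand), was the most abundant member and its level moved little. It stood at 1688, 1742 and 1808 CPM in iLuc and at 2151, 1575 and 1705 CPM in iEF. The 3 iLuc libraries lay within the range of the iEF libraries, and the log2 fold change of iLuc against iEF was -0.04 (95% interval -0.30 to 0.22, edgeR adjusted p = 0.841). WT-EF libraries held 2085, 1929 and 2202 CPM, Δ22 libraries 2039, 1397 and 1696 CPM and DAF libraries 1715, 1241 and 1891 CPM. The single call was WT-EF over DAF, with a log2 fold change of 0.37 ± 0.12 (SE, n = 3 and 3, edgeR adjusted p = 0.0313), and all WT-EF libraries were above all DAF libraries. That call was lost when WT-EF replicate 2 or 3 or DAF replicate 1 or 2 was left out (adjusted p 0.0745 to 0.189). Without TMM scaling CCND1 was also called higher in WT-EF than in iEF (log2 fold change 0.43, adjusted p = 0.0077), against 0.20 with it. The CCND1 exons share 497 bases with LTO1 on the opposite strand, and since no source used here states the strand setting of the counting, reads there cannot be assigned with certainty.

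CCND2, a second D-type cyclin (GRCh37, chr12:4378937-4414519, plus strand), had the widest fold between its lowest and its highest library among the members, 23.2, and was one of the least abundant. It was counted 11, 12 and 17 times in the iEF libraries, or 0.289, 0.405 and 0.494 CPM, and at 3.00, 3.03 and 4.63 CPM in iLuc. WT-EF libraries held 3.41, 5.13 and 3.97 CPM. Every iLuc and WT-EF library was thus above every iEF library. The log2 fold change against iEF was 3.21 ± 0.44 for iLuc (edgeR adjusted p = 2.99e-05). It was 3.41 ± 0.44 for WT-EF (edgeR adjusted p = 3.23e-05). The WT-EF and iLuc levels overlapped, and their log2 difference was 0.20 with an interval of -0.56 to 0.96 (edgeR adjusted p = 0.767).

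The mutant constructs left CCND2 at uneven levels. DAF libraries held 1.09, 6.70 and 3.22 CPM, from near the iEF level to above every WT-EF library, and the log2 fold change against iEF was 3.05 ± 0.44 (edgeR adjusted p = 0.0005). Δ22 libraries held 0.615, 2.27 and 1.79 CPM, all above the iEF libraries, but the log2 fold change of 1.87 ± 0.46 did not pass the adjusted test (edgeR adjusted p = 0.0618). Leaving out iLuc replicate 2, WT-EF replicate 3, Δ22 replicate 1, DAF replicate 1 or DAF replicate 2 brought that p to between 0.0272 and 0.0431. The DESeq2 Wald test also called this change (adjusted p = 0.00201). So did edgeR with no filter on low counts (adjusted p = 1.14e-05) and with only the 6 libraries compared (adjusted p = 0.029). In all it was called in 8 of 26 alternatives. CCND2 was higher in WT-EF than in Δ22 by a log2 fold change of 1.54 ± 0.38 (edgeR adjusted p = 0.00568), with no overlap between the libraries. DAF exceeded Δ22 by 1.18 (interval 0.37 to 1.98), which missed the threshold (edgeR adjusted p = 0.195) and shrank to 0.58 without DAF replicate 2. The difference of WT-EF from DAF was 0.36, and 0.96 without DAF replicate 2, in neither case past the threshold. Limma on log2(CPM + 0.5) of the ComBat-adjusted counts, which differs in input, scaling, method and offset together, gave smaller changes of 1.91 for iLuc, 2.13 for WT-EF and 1.67 for DAF against iEF.

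CCND3, the third D-type cyclin (GRCh37, chr6:41902672-42018095, minus strand), lay between 14.6 and 24.3 CPM in all 15 libraries. Neighbouring conditions overlapped throughout the order of its means, from 15.4 CPM in WT-EF through 17.4 CPM in iLuc, 19.8 CPM in Δ22 and 20.0 CPM in DAF to 20.1 CPM in iEF. WT-EF was called lower than iEF at the edge of the threshold, by a log2 fold change of -0.39 ± 0.14 (edgeR adjusted p = 0.0495). That call was kept without iEF replicate 2 (adjusted p = 0.0022) and lost without any other single library (adjusted p 0.0519 to 0.315), and it was lost in 22 of 26 alternatives. Without iEF replicate 2 iLuc was also called lower than iEF (adjusted p = 0.00832). Without iEF replicate 2 or 3, WT-EF was called lower than DAF (adjusted p 0.012 to 0.0234) and than Δ22 (adjusted p 0.0205 to 0.03).

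Scaled per kilobase of the MANE Select transcript, the D-type cyclin message was nearly all CCND1. CCND1 stood at 411.9 CPM per kb in iLuc and at 427.2, 488.9, 403.6 and 381.2 CPM per kb in iEF, WT-EF, Δ22 and DAF, the highest level of the 10 members in each condition. Its share of the summed D-type cyclins was 96.1% to 98.5% in the 15 libraries. CCND3 made up 1.37% to 3.57%. The share of CCND2 was 0.00861% to 0.0184% in iEF and reached 0.339% in DAF replicate 2, so that its relative rise concerned a small part of this family's message. By the lengths of all annotated exons the share of CCND1 was 98.2% to 99.3%.

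CCNE1 and CCNE2 encode the E-type cyclins, the partners of CDK2 at the entry into S phase. CCNE1 (GRCh37, chr19:30302898-30315219, plus strand) was at 13.7, 11.4 and 18.4 CPM in iEF and at 9.78, 9.23 and 12.6 CPM in iLuc. WT-EF libraries held 8.92, 10.3 and 7.72 CPM, Δ22 libraries 10.3, 10.04 and 9.54 CPM and DAF libraries 7.87, 9.13 and 10.1 CPM. Thus the iEF libraries were above all WT-EF, Δ22 and DAF libraries and overlapped with iLuc. The log2 fold changes against iEF were -0.46 for iLuc, -0.67 for WT-EF, -0.52 for Δ22 and -0.68 for DAF, each with an SE of 0.17. By edgeR's adjusted p iLuc (0.0432), WT-EF (0.008) and DAF (0.0199) passed the threshold and Δ22 (0.164) did not.

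The CCNE1 calls rested on single libraries. The iLuc call was lost without iLuc replicate 1 or 2, iEF replicate 1 or 3 or DAF replicate 3 (adjusted p 0.0536 to 0.231). The WT-EF call was lost without iEF replicate 3 or WT-EF replicate 3 (adjusted p 0.0542 to 0.0576). The DAF call was lost without iEF replicate 1 or 3 or any DAF library (adjusted p 0.0688 to 0.134). The iLuc call was lost in 10 of 26 alternatives, among them library totals without TMM (log2 fold change -0.24, adjusted p = 0.244) and limma on the ComBat-adjusted counts (-0.20, adjusted p = 0.206). That limma fit also ended the WT-EF call (-0.32, adjusted p = 0.0581). All 26 alternatives kept the sign of these 3 changes. In the comparisons of WT-EF with iLuc, DAF and Δ22 and of DAF with Δ22, the log2 differences of CCNE1 ran from -0.21 to 0.00, with intervals reaching from -0.58 to 0.37, and none passed the threshold.

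CCNE2, on chromosome 8, was highest in the iEF libraries at 42.6, 28.4 and 40.0 CPM. It was lowest in iLuc, at 16.1, 9.68 and 18.6 CPM, with no overlap with iEF, and the log2 fold change was -1.34 ± 0.14 (edgeR adjusted p = 1.52e-06). WT-EF libraries held 23.2, 18.2 and 20.0 CPM, also all below iEF, with a log2 fold change of -0.83 ± 0.13 (edgeR adjusted p = 0.000232). Both of these calls were kept in all 26 alternatives. WT-EF thus stood between iLuc and iEF, and its excess over iLuc was 0.51 ± 0.13 (edgeR adjusted p = 0.0156), a call lost without iLuc replicate 1 or 2 or WT-EF replicate 2 (adjusted p 0.0568 to 0.0968).

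Both mutant constructs overlapped with iEF in CCNE2. Δ22 libraries held 32.8, 17.9 and 27.0 CPM and DAF libraries 26.2, 20.4 and 29.2 CPM. The fitted log2 changes against iEF were alike in size, at -0.53 (interval -0.81 to -0.24) for Δ22 and -0.54 (-0.82 to -0.26) for DAF, yet DAF passed the threshold (edgeR adjusted p = 0.0163) and Δ22 did not (0.0692). Before adjustment the edgeR p were alike, at 0.00111 for DAF and 0.00131 for Δ22. The adjustment was made over all genes of each comparison. DAF and Δ22 differed directly by -0.01 with an interval of -0.30 to 0.27. The DAF call was lost without iEF replicate 1 or 2 or any DAF library (adjusted p 0.0517 to 0.103), and Δ22 gained one without iLuc replicate 3, WT-EF replicate 3 or Δ22 replicate 1 (adjusted p 0.0289 to 0.048). Without WT-EF replicate 2, CCNE2 was called lower in WT-EF than in DAF (adjusted p = 0.0404) and than in Δ22 (adjusted p = 0.0337). In every condition replicate 2 was the lowest library. The CCNE2 exons share 1629 bases with INTS8 on the opposite strand, which was counted up to 3934 times in a library, so its level is uncertain to that extent.

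CDK4 (GRCh37, chr12:58141510-58149796, minus strand), a kinase of the D-type cyclins, was highest in iEF at 71.7, 67.4 and 74.5 CPM. The other 4 conditions lay between 48.0 and 64.0 CPM in every library and overlapped among themselves. Against iEF the log2 fold changes were -0.43 for iLuc, -0.36 for WT-EF, -0.32 for Δ22 and -0.44 for DAF, each with an SE of 0.11. By edgeR's adjusted p iLuc (0.00377), WT-EF (0.0192) and DAF (0.0136) passed the threshold and Δ22 (0.167) did not. The WT-EF call was lost without iEF replicate 1 or 3 or WT-EF replicate 1 or 3 (adjusted p 0.0509 to 0.159), and the DAF call without iEF replicate 1 or 3 or DAF replicate 2 or 3 (adjusted p 0.0529 to 0.114).

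The small differences of CDK4 also depended on the scaling. Without TMM the median log2 fold change of all genes was 0.25 for iLuc and 0.22 for WT-EF against iEF, instead of 0.04 and -0.01. CDK4 then changed by -0.22 for iLuc (adjusted p = 0.0689) and by -0.13 for WT-EF (adjusted p = 0.323), so both calls were lost. Relative to the median of all genes the 2 scalings gave -0.48 and -0.47 for iLuc, and both gave -0.35 for WT-EF. The CDK4 exons share 1369 bases with TSPAN31 on the opposite strand, which was counted up to 558 times in a library.

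CDK6 (GRCh37, chr7:92234235-92465887, minus strand), the other kinase of the D-type cyclins, separated the conditions into groups that did not overlap. It was at 34.7, 28.8 and 26.8 CPM in iLuc and at 144.5, 167.7 and 167.2 CPM in iEF. WT-EF libraries held 69.3, 71.3 and 48.2 CPM, above every iLuc and below every iEF library. Δ22 libraries held 130.1, 157.8 and 240.7 CPM and DAF libraries 154.8, 154.3 and 177.4 CPM, and both ranges overlapped with iEF. CDK6 was lower than in iEF by a log2 fold change of -2.40 ± 0.21 in iLuc (edgeR adjusted p = 2.98e-07). In WT-EF it was lower by -1.34 ± 0.20 (edgeR adjusted p = 0.00012). For Δ22 the change from iEF was 0.13 with an interval of -0.28 to 0.55. For DAF it was 0.02 with an interval of -0.39 to 0.44, and neither passed the threshold (edgeR adjusted p = 0.852 and 0.974).

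The conditions differed in CDK6 directly as well. WT-EF was below DAF by a log2 fold change of -1.36 ± 0.20 (edgeR adjusted p = 0.000142). It was below Δ22 by -1.47 ± 0.20 (edgeR adjusted p = 6.09e-05). WT-EF was still above iLuc, by 1.07 ± 0.20 (edgeR adjusted p = 0.00169). DAF and Δ22 differed by -0.11 with an interval of -0.53 to 0.30. Of these 5 calls the excess of WT-EF over iLuc was lost when replicate 2 of every condition was left out (adjusted p = 0.0778), and no call was lost without a single library or in another alternative. Limma on the ComBat-adjusted counts gave a smaller change of -1.77 in iLuc against iEF (adjusted p = 1.61e-08).

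CDKN1A (GRCh37, chr6:36644237-36655114, plus strand), which encodes p21, an inhibitor that many stress signals raise through p53, was called in more comparisons than any other member. It stood at 14.3, 15.8 and 18.0 CPM in iLuc and at 89.9, 77.6 and 109.4 CPM in iEF. WT-EF libraries held 54.1, 55.8 and 57.0 CPM, again above every iLuc and below every iEF library. Δ22 libraries held 121.4, 139.3 and 241.7 CPM and DAF libraries 124.3, 126.6 and 215.7 CPM. Here every Δ22 and DAF library was above every iEF library, and replicate 3 was the highest library of all 5 conditions. CDKN1A was lower than in iEF by a log2 fold change of -2.52 ± 0.16 in iLuc (edgeR adjusted p = 1.81e-08). In WT-EF it was lower by -0.71 ± 0.15 (edgeR adjusted p = 0.00217).

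In contrast to CDK6, CDKN1A rose above iEF with both mutant constructs. The log2 fold change was 0.82 ± 0.15 for Δ22 (edgeR adjusted p = 0.0148). It was 0.72 ± 0.15 for DAF (edgeR adjusted p = 0.0059). CDKN1A was the one member called in Δ22 against iEF, and that call was lost without iEF replicate 2 or 3 or Δ22 replicate 2 or 3 (adjusted p 0.0685 to 0.093). It was also lost without replicate 1 (adjusted p = 0.0534) or replicate 2 (adjusted p = 0.327) of every condition. Without the replicate block the Δ22 call (adjusted p = 0.131) and the DAF call (adjusted p = 0.0627) were both lost. The DAF call was kept without each single library and lost without replicate 2 of every condition (adjusted p = 0.0865).

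WT-EF stood apart from both mutants in CDKN1A, by a log2 fold change of -1.43 ± 0.15 against DAF (edgeR adjusted p = 1.24e-05). Against Δ22 it was -1.52 ± 0.15 (edgeR adjusted p = 4.53e-06). WT-EF was above iLuc by 1.81 ± 0.16 (edgeR adjusted p = 4.92e-06). All 3 of these calls and that of iLuc against iEF were kept in all 26 alternatives. DAF and Δ22 differed by -0.10 with an interval of -0.41 to 0.22. Limma on the ComBat-adjusted counts gave a smaller -1.74 for iLuc against iEF (adjusted p = 2.16e-07) and -0.41 for WT-EF against iEF, which missed the threshold (adjusted p = 0.0528).

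Since CDK6 and CDKN1A were the members called lower in both iLuc and WT-EF and lower in WT-EF than in both mutants, the 250 bases before their start sites are shown, taken from RefSeq's promoters on GRCh38.p14. EWS/FLI binds through the ETS domain of FLI, whose core is GGAA, and binds tandem GGAA repeats; the capitals mark GGAA on either strand. CDK6 has 2 start sites in that table, on the minus strand at chr7:92833960-92834209 and at chr7:92836574-92836823, and CDKN1A has 1, on the plus strand at chr6:36678464-36678713; each sequence is written in the direction of its gene.
CDK6 first window: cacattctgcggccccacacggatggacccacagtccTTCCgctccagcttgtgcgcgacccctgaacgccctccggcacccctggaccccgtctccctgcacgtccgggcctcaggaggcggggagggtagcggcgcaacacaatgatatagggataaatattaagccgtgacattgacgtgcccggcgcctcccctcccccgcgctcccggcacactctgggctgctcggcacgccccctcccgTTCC
CDK6 second window: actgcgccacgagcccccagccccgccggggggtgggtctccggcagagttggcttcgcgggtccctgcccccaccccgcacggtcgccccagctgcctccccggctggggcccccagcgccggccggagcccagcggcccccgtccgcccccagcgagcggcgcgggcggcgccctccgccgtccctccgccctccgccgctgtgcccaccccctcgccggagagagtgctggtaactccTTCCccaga
CDKN1A: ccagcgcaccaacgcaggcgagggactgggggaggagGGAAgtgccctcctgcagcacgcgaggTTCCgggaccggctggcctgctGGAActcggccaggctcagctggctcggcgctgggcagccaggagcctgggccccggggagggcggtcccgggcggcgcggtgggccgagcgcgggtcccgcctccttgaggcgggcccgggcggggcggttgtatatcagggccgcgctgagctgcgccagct
The CDKN1A window held GGAA at 3 positions, the first CDK6 window at 2 and the second at 1. Of the 10 members, 6 were searched, with 9 start sites in all. GGAA was found between 1 and 4 times in each window, and at least once in 92.7% of the 35116 promoters of the table. CCND1, CCND2 and CDKN1C had no entry among those promoters, and CCNE2 was left out of the search. The repeat GGAAGGAA, present in 3.06% of all promoters, was in 0 of the 9 windows, as was the ETS site CCGGAAGT (3.42% of all promoters). The E2F sites TTTGGCGC (0.55%) and TTTCCCGC (1.39%) were also in 0 of the 9. The GC box GGGCGG was in 7 of the 9 windows and in 42.6% of all promoters. All motifs were searched on both strands over 250 bases, GGAA lies within GGAAGGAA and CCGGAAGT, and a match is a stretch of letters and not a measured site.

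**Figure D2:**
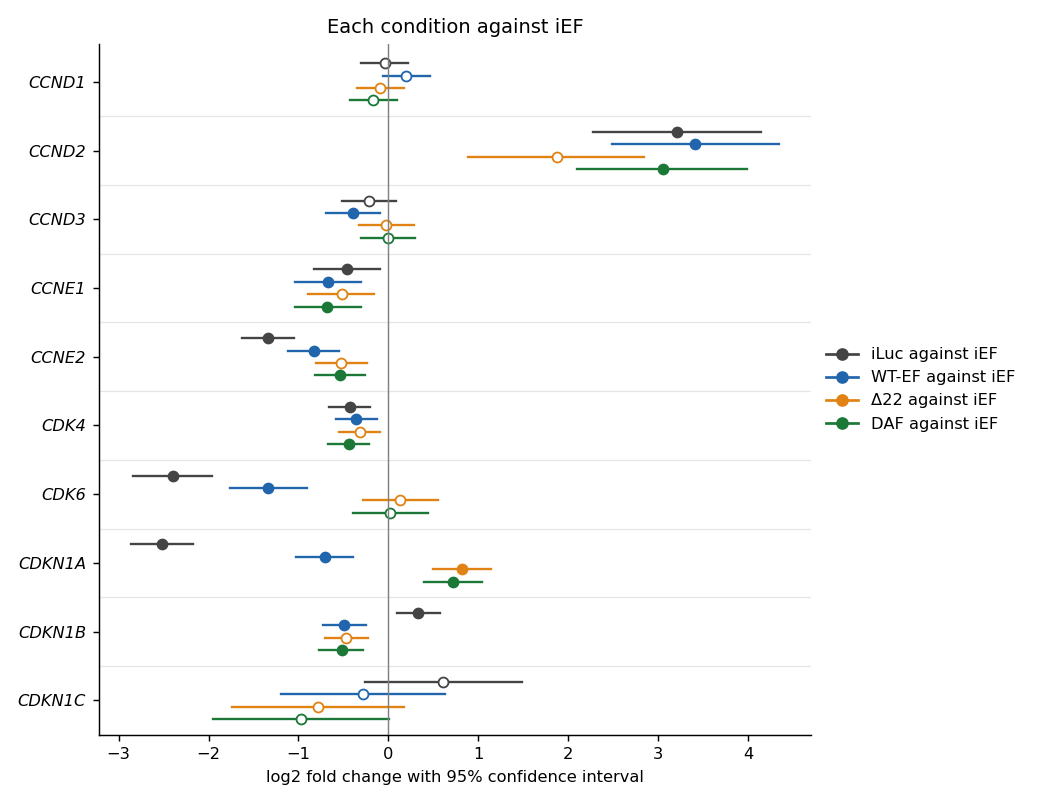
Log2 fold change (x axis) of each member (y axis) in iLuc, WT-EF, Δ22 and DAF against iEF, with bars for the 95% confidence interval of the edgeR fit; filled points passed an adjusted p of 0.05 and open points did not. CDK6 and CDKN1A were below 0 in iLuc and WT-EF, CDKN1A was above 0 in Δ22 and DAF, and CCNE1, CCNE2 and CDK4 were below 0 in all 4 comparisons, which share the iEF libraries.

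CDKN1B (GRCh37, chr12:12838432-12875303, plus strand), which encodes p27, was highest in iLuc at 58.1, 63.7 and 55.3 CPM. The iEF libraries held 47.0, 47.2 and 46.8 CPM, and those of WT-EF 31.3, 33.4 and 35.6 CPM. Δ22 libraries held 40.7, 33.3 and 28.2 CPM and DAF libraries 35.8, 32.7 and 29.7 CPM. The order was therefore iLuc, then iEF, then WT-EF, Δ22 and DAF, with no overlap between the first, the second and the last 3, which overlapped among themselves. WT-EF did not take CDKN1B towards its iLuc level: it was below iEF by a log2 fold change of -0.49 ± 0.11 (edgeR adjusted p = 0.00411). It was below iLuc by -0.82 ± 0.11 (edgeR adjusted p = 0.00019), a call kept in all 26 alternatives.

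Against iEF, CDKN1B was higher in iLuc by a log2 fold change of 0.33 ± 0.11 (edgeR adjusted p = 0.0292). DAF was lower by -0.52 ± 0.11 (edgeR adjusted p = 0.00771). Δ22 was at -0.47 ± 0.11 and did not pass the threshold (edgeR adjusted p = 0.0586). Leaving out iLuc replicate 2 or 3, iEF replicate 1 or 2, Δ22 replicate 2 or DAF replicate 2 ended the iLuc call (adjusted p 0.0525 to 0.161). Leaving out DAF replicate 2 or 3 ended the DAF call (adjusted p 0.0531 to 0.059), and leaving out WT-EF replicate 1 or 3 or Δ22 replicate 1 gave Δ22 a call (adjusted p 0.0174 to 0.0437). Without TMM the WT-EF call against iEF was lost (log2 fold change -0.26, adjusted p = 0.131), although relative to the median of all genes the change was -0.48 by both scalings. WT-EF, DAF and Δ22 differed from each other by at most 0.05 on the log2 scale, with intervals from -0.30 to 0.28.

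CDKN1C (GRCh37, chr11:2904443-2907005, minus strand), which encodes p57, was counted 10 to 53 times in a library and passed no test. It was at 1.16, 1.09 and 1.37 CPM in iLuc and at 0.447, 1.15 and 0.814 CPM in iEF. WT-EF libraries held 0.471, 0.264 and 1.41 CPM, Δ22 libraries 0.410, 0.365 and 0.643 CPM and DAF libraries 0.422, 0.290 and 0.537 CPM. The iLuc libraries were above all Δ22 and DAF libraries and overlapped with iEF and WT-EF. The log2 fold changes against iEF ran from -0.97 for DAF (interval -1.95 to 0.01) to 0.61 for iLuc (interval -0.26 to 1.48). Without iEF replicate 2 the change was -0.34 for DAF, and for Δ22 it went from -0.78 to -0.17. Without iEF replicate 2 iLuc was called higher than iEF (log2 fold change 1.21, adjusted p = 0.0257), and without WT-EF replicate 3 WT-EF was called lower than iLuc (-1.54, adjusted p = 0.0149). The sign of WT-EF against iEF turned with the library left out, from 0.32 without iEF replicate 2 to -0.94 without WT-EF replicate 3.

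**Figure D3:**
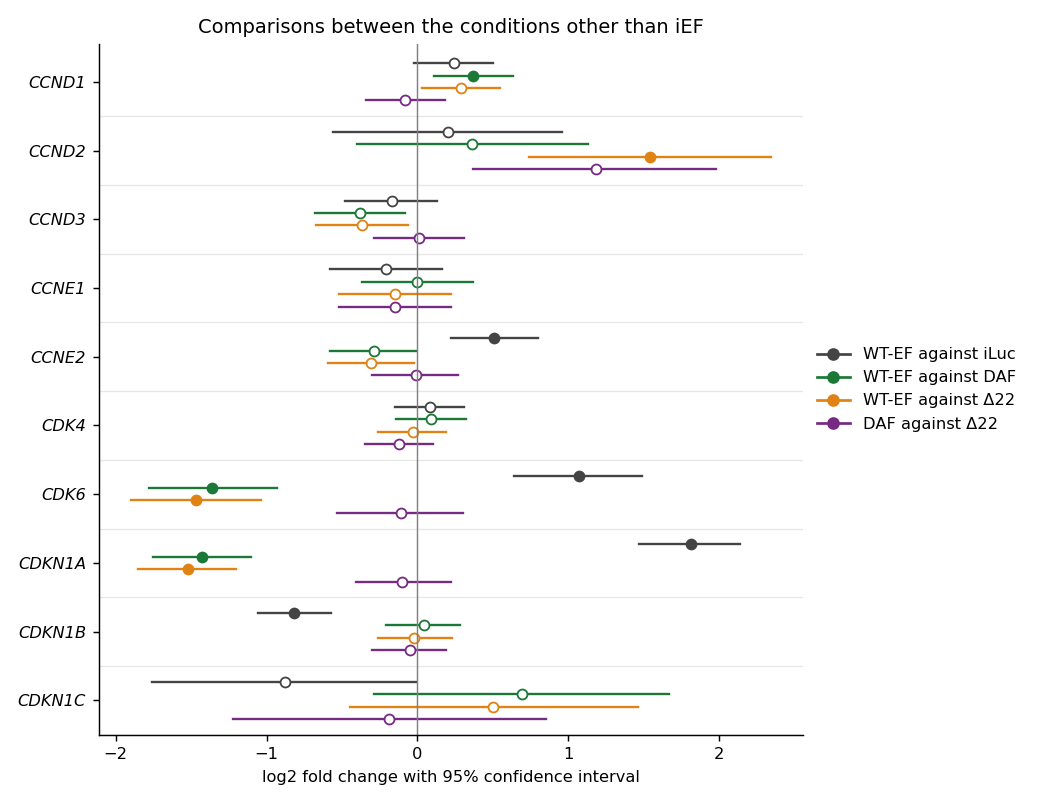
Log2 fold change (x axis) of each member (y axis) between the conditions other than iEF, with bars for the 95% confidence interval of the edgeR fit; filled points passed an adjusted p of 0.05. CDK6 and CDKN1A were above iLuc and below both mutants in WT-EF, and no member differed between DAF and Δ22 past the threshold.

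Within families the balance between members shifted with the condition. These shares use CPM per kilobase of the MANE Select transcript and are descriptions with no test. CDK6 made up 8.41% ± 1.34 (SD, n = 3) of the summed CDK4 and CDK6 level in iLuc, 26.4% ± 2.04 in iEF, 15.2% ± 1.47 in WT-EF, 32.7% ± 8.37 in Δ22 and 33.1% ± 2.04 in DAF. The ranges of iLuc, WT-EF and iEF did not overlap, DAF lay above iEF, and Δ22 overlapped with both iEF and DAF. By all annotated exons the same shares were 12.7%, 36.2%, 22.1%, 43.2% and 43.9%, in the same order. CCNE2 made up 50.0% ± 5.88 of the E-type cyclins in iLuc and 62.4% to 66.9% on average in the other conditions, where the library ranges all overlapped.

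Among the CIP/KIP inhibitors CDKN1B led in iLuc and CDKN1A in every other condition. CDKN1A made up 23.2% ± 2.80 of the family in iLuc, 68.3% ± 3.91 in iEF, 64.9% ± 1.32 in WT-EF, 83.3% ± 6.75 in Δ22 and 83.3% ± 5.01 in DAF. The WT-EF share of 63.4% to 65.9% overlapped with that of iEF (64.4% to 72.2%), although the CDKN1A level differed, since CDKN1B was lower in WT-EF too. In absolute terms CDKN1A stood at 7.59 CPM per kb in iLuc, 43.6 in iEF, 26.3 in WT-EF, 79.1 in Δ22 and 73.5 in DAF, and CDKN1B at 24.5, 19.5, 13.9, 14.1 and 13.6 CPM per kb. The length chosen matters here, because the annotated exons of CDKN1B span 9255 bases and its MANE transcript 2411: by all exons CDKN1A held 43.8% in iLuc and 82.7% to 92.9% elsewhere. CDKN1C was at 0.222% to 2.40% of the family in all libraries.

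**Figure D4:**
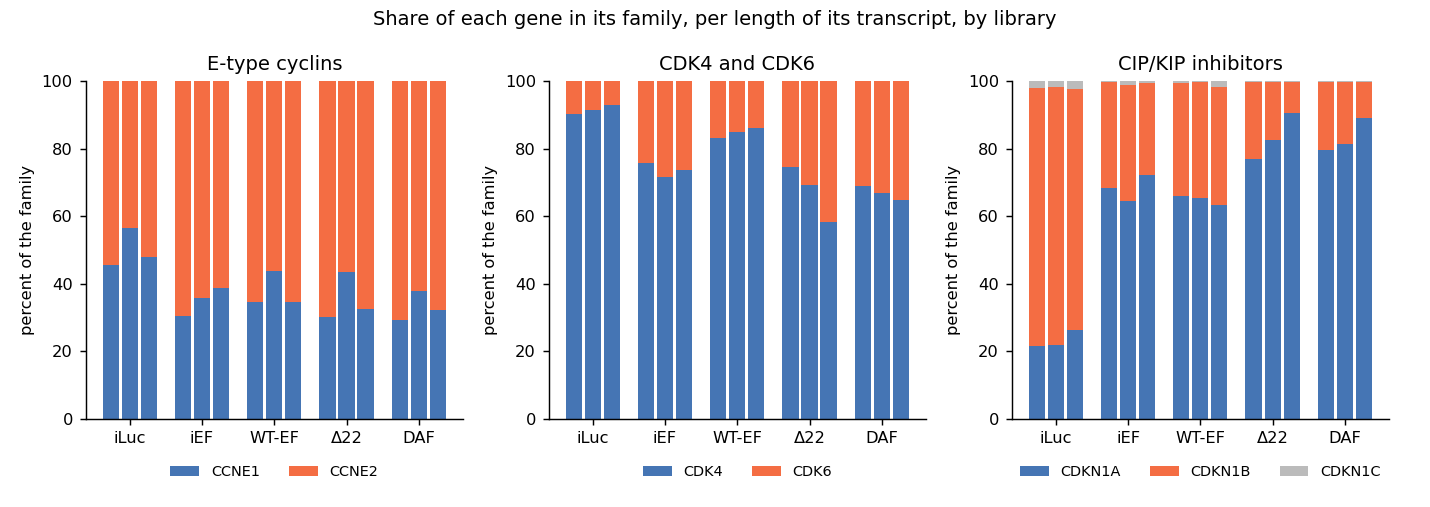
Share of each gene in the summed level of its family (y axis, percent, CPM per kilobase of the MANE Select transcript), with 1 bar for each of libraries 1 to 3 in each condition. CDK6 took 7.03% to 9.70% of the CDK4 and CDK6 level in iLuc and 24.4% to 28.5% in iEF, and CDKN1A took 21.5% to 26.4% of the CIP/KIP level in iLuc and at least 63.4% elsewhere.

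The genes whose log2 CPM followed a member most closely over the 15 libraries were sought among 13177 other genes with an average of at least 50 counts, for the 3 members with the widest span of condition means. CDKN1A was followed by DCUN1D3 (Pearson's r 0.988), MAFF (0.985) and CTTNBP2NL (0.984). CDK6 was followed by BMP1 (0.994), WASHC4 (0.990) and MMP14 (0.990), and its r with CDKN1A was 0.945, which ranked CDK6 at 245 among the genes most like CDKN1A. CCND2 was followed by KDM7A (0.948), DPP4 (0.940) and TMEM144 (0.938), and its r with CDK6 was -0.50. These values describe libraries that share conditions and replicate sets and carry no p. As an example of the pattern, MMP14, a membrane-bound matrix metalloprotease, averaged 68.3 CPM in iLuc, 356.7 in iEF, 139.5 in WT-EF, 371.4 in Δ22 and 354.3 in DAF, the order of CDK6 within its spread.

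The INK4 inhibitors, which act on CDK4 and CDK6, were the nearest family outside the set. CDKN2A and CDKN2B, named here after their values were seen, were counted 0 times in all 15 libraries. CDKN2C and CDKN2D averaged at least 1 count, and their median log2 fold change against iEF was -0.59 in iLuc with 1 of 2 called lower, -0.88 in WT-EF with 2 of 2, -0.68 in Δ22 with 1 of 2 and -0.73 in DAF with 2 of 2. Over all alternatives the number of these genes called lower was 0 to 2 in iLuc, Δ22 and DAF and 2 in WT-EF. With TMM the median of all genes was between -0.01 and 0.04 in these comparisons, as for the lists that follow. Of 7 genes for the turnover of G1 proteins, SKP2, part of the ligase that marks p27 for destruction, was named by its size of change: it was at 147.1, 151.4 and 160.3 CPM in iLuc, 54.3, 67.0 and 62.5 CPM in iEF, 64.1, 91.2 and 94.3 CPM in WT-EF, 34.9 to 46.5 CPM in Δ22 and 34.9 to 43.4 CPM in DAF. SKP2 was higher in iLuc than in iEF by a log2 fold change of 1.33 (edgeR adjusted p = 6.83e-07). Of that list 2 of 7 genes were called higher and 1 lower in iLuc, 1 and 0 in WT-EF, 0 and 1 in Δ22 and 1 and 2 in DAF, against iEF. Without TMM 3 were higher and 0 lower in iLuc, and 6 of the 7 were higher in WT-EF. Among CDK2 and 4 genes of CDK activation 2 were called higher and 1 lower in iLuc, 1 higher in WT-EF, 0 in Δ22 and 1 lower in DAF, and without TMM 3 were higher in iLuc and 2 in WT-EF. For these lists and those that follow, the shares of all genes called higher and lower are given first for the fit with TMM. They were 19.5% and 22.1% in iLuc, 12.9% and 17.0% in WT-EF, 0.472% and 0.830% in Δ22 and 5.00% and 6.19% in DAF. Without TMM 7865 of 28793 genes were called higher and 5102 lower in iLuc, and 6376 and 3412 in WT-EF. The median log2 fold change of all genes was then 0.25 in iLuc and 0.22 in WT-EF.

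Downstream of the members, the 16 E2F target genes of S phase moved against iEF in a direction that differed between conditions. In iLuc 11 were called higher and 1 lower (median log2 fold change 0.32). In WT-EF 1 was called higher and 1 lower (median 0.00). In Δ22 10 were called lower (median -0.52) and in DAF 15 (median -0.65), with 0 called higher in both. WT-EF was higher than DAF for 14 of the 16 (median 0.59) and higher than Δ22 for 12 (median 0.43), and lower than iLuc for 11 (median -0.33). CCNE1 and CCNE2, which E2F is also known to raise, were called lower in iLuc, where 11 of these 16 genes were called higher. The CCNE1 call was lost in 10 of 26 alternatives, and the CCNE2 exons overlap with INTS8, as given above. Whether E2F bore on either cyclin was not tested. The counts against iEF moved with the setting too: without TMM 14 of the 16 genes were called higher in iLuc and 7 in WT-EF. Over all alternatives the number called higher was 6 to 14 in iLuc and 1 to 10 in WT-EF. The number called lower was 0 to 13 in Δ22 and 10 to 15 in DAF.

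Of 13 later cyclins and mitotic markers, which share CCNA2 with the former list, 3 were called higher in iLuc, 4 lower in WT-EF, 0 either way in Δ22 and 12 lower in DAF, with medians of 0.05, -0.20, -0.40 and -0.62. Alternatives gave 0 to 7, 1 to 6, 0 to 11 and 5 to 12 calls in those directions. Of 13 RB and E2F genes 6 were called higher and 3 lower in iLuc, 3 and 3 in WT-EF, 0 and 0 in Δ22 and 1 and 7 in DAF. Without TMM 7 were higher and 1 lower in WT-EF, and over all alternatives the number called lower was 0 to 4 in Δ22 and 1 to 8 in DAF. E2F2, an activating E2F, was at 52.5 to 62.7 CPM in iLuc, 13.9 to 15.1 CPM in iEF and 31.1 to 47.6 CPM in WT-EF, and at 7.49 to 13.5 CPM in the 6 mutant libraries. E2F7, a repressing E2F, was at 33.7 to 38.5 CPM in iLuc, 40.9 to 81.6 CPM in WT-EF, 61.7 to 85.9 CPM in iEF and 102.8 to 136.1 CPM in the mutants. Its WT-EF libraries overlapped with iEF, whereas those of CDKN1A lay below every iEF library.

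**Figure D5:**
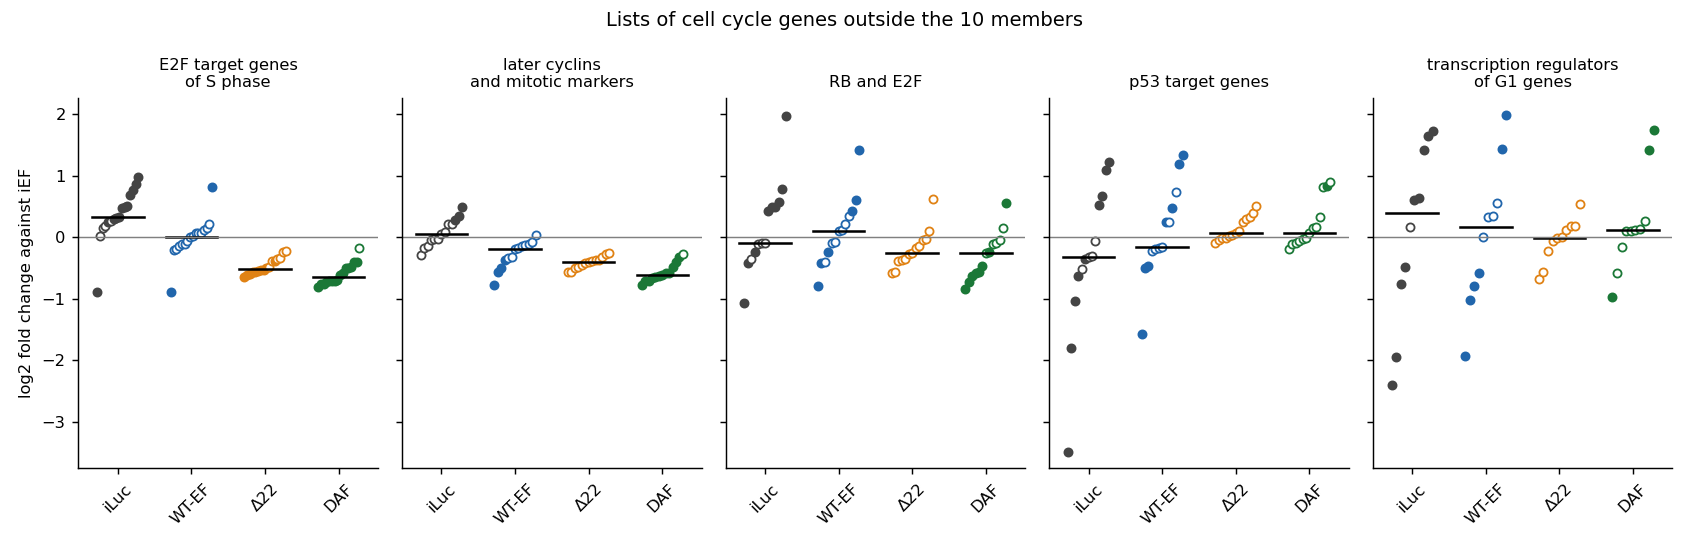
Log2 fold change against iEF (y axis) of the genes of 5 lists in iLuc, WT-EF, Δ22 and DAF (x axis); filled points passed an adjusted p of 0.05, open points did not, and black lines are medians. The E2F target genes had medians of 0.32, 0.00, -0.52 and -0.65, while the p53 target genes scattered in both directions in iLuc and WT-EF.

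CDKN1A is the best known transcriptional target of p53, and A673 cells are known to lack functional p53. Of 13 other p53 target genes 4 were called higher and 5 lower in iLuc against iEF, 4 and 3 in WT-EF, 0 and 0 in Δ22 and 1 and 0 in DAF. Without TMM 6 were higher and 1 lower in WT-EF. TP53I3, a quinone oxidoreductase, was lower in iLuc by a log2 fold change of -3.49 and in WT-EF by -1.58 (edgeR adjusted p = 7.94e-08 and 9.36e-05). GDF15, a secreted stress factor, fell in iLuc by -1.81 and rose in WT-EF by 1.34 (edgeR adjusted p = 0.00219 and 0.00868). BTG2 was higher in iLuc (1.09) and in WT-EF (1.19), and BBC3, which encodes PUMA, was higher in iLuc (1.22) and at 0.73 in WT-EF, which missed the threshold (edgeR adjusted p = 0.0612). In iLuc and WT-EF the list thus held members that moved with CDKN1A and members that did not. In the mutants, where CDKN1A was called higher, 0 of the 13 were called in Δ22 and 1 in DAF. Of all genes 0.472% were called higher and 0.830% lower in Δ22, and 5.00% and 6.19% in DAF. The counts of the 13 were near those shares. What moved CDKN1A was not tested.

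Of 10 transcription regulators of G1 genes 5 were called higher and 4 lower in iLuc, 2 and 4 in WT-EF, 0 and 0 in Δ22 and 2 and 1 in DAF. Without TMM 5 were higher and 3 lower in WT-EF. KLF4 and KLF6, zinc finger factors that are both known to raise CDKN1A, were lower in iLuc (log2 fold change -2.40 and -1.95) and in WT-EF (-1.94 and -1.03). In DAF, where CDKN1A lay above every iEF library, KLF4 was at 7.52 to 8.82 CPM, below every iEF library (10.8 to 13.7 CPM), with a log2 fold change of -0.59 that missed the threshold (edgeR adjusted p = 0.206), and KLF6 was at 0.13. In Δ22 the log2 fold changes were 0.18 for KLF4 and 0.12 for KLF6, neither past the threshold. MYCN and FOXO4 were higher in iLuc (1.72 and 1.65), in WT-EF (1.99 and 1.44) and in DAF (1.74 and 1.41). Whether any of these moved CDKN1A, CDK6 or CCND2 was not tested. The Ewing sarcoma markers, which are raised by EWS/FLI, were called higher in 7 of 7 in iLuc and WT-EF, 1 of 7 in Δ22 and 5 of 7 in DAF, with medians of 3.34, 2.84, 0.36 and 1.37. Over the same 4 comparisons, in that order, the log2 fold change of CCND2 was 3.21, 3.41, 1.87 and 3.05.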

How the data were processed

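RNA was extracted with RNeasy columns and libraries were made with ScriptSeq. Paired-end reads were mapped to hg19 by the authors with STAR (2.5.1b in the submitters' processing notes, while the paper's methods name another release), and htseq-count was run in intersection-strict mode; the strand setting and annotation release are not given in the sources used here. The deposited counts are raw whole numbers per gene. A further file of the authors holds ComBat-adjusted counts for 27002 genes, decimal signal values that were not scaled for library size. Their own fold changes and p-values were not used. Of the count columns, 3 match no sample here and were left out.

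Groups came from the sample labels. Genes with a mean count of 1 or more were fitted in R 4.3.3 with edgeR 4.0.16 (TMM, glmQLFit, glmQLFTest), with condition and replicate number as a block over all 15 libraries, with the Benjamini-Hochberg adjustment over all genes of a comparison. The block follows the study, which adjusted by replicate set. Deviations from the condition mean had a median r of 0.185 over 30 pairs of libraries of the same number (range -0.183 to 0.78, 13178 genes). Over 60 pairs of different numbers it was -0.0842 (range -0.582 to 0.395). Deviations within a condition cancel out, so the second value is not independent of the first. Standard errors and 95% intervals are those of the log2 fold change. CPM used TMM-scaled library totals. Depth bounds the precision of low counts, and intervals on counts would cover counting error only. The fit was tested on simulated data.

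Alternatives were DESeq2's size factors, DESeq2 1.42.0's Wald test, no filter, filterByExpr, no replicate block, only the 6 libraries compared, limma 3.58.1 on log2(CPM + 0.5) of the ComBat-adjusted counts, fits without each replicate set or library, and library totals without TMM, which was added after the data were seen.

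Gene symbols came from the reference tables (55538 of 57820 identifiers matched), gene positions and transcript lengths from GENCODE on GRCh37, and promoters from RefSeq on GRCh38.p14. The members and gene lists were chosen with earlier results of these data known. Named outside the members were up to 4 genes of a list with the largest change past an adjusted p of 0.05 and a log2 fold change of 1 in iLuc against iEF, the 3 genes most like each of 3 members, and FLI1. Genes named only as overlapping neighbours and those marked in the text fall outside this rule, as do CDKN2C and CDKN2D.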

Additional observations from a re-analysis of the deposited data

How the results depend on the processing

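The number of members called was recomputed under 26 alternatives. In WT-EF against iEF 8 became 4 with limma on the ComBat-adjusted counts. In Δ22 against iEF 1 became 4 with the DESeq2 Wald test, 4 with no filter on low counts, 3 with only the 6 libraries and 0 with no replicate block. In DAF against Δ22 0 became 1 (CCND2) with no filter and with only the 6 libraries. Without the replicate block the other counts were 6 for iLuc, 7 for WT-EF and 4 for DAF against iEF, and 3, 2, 3 and 0 for WT-EF against iLuc, DAF and Δ22 and DAF against Δ22, and it ended the calls of CCNE1 in iLuc, CCND3 in WT-EF (adjusted p = 0.0644) and CCNE2 in DAF against iEF, CCNE2 in WT-EF against iLuc and CCND1 in WT-EF against DAF beside those of CDKN1A given above. Leaving out a replicate set or a library gave 4 to 8 for iLuc against iEF (main count 7), 5 to 8 for WT-EF (8), 0 to 4 for Δ22 (1), 1 to 6 for DAF (6), 2 to 5 for WT-EF against iLuc (4), 2 to 4 against DAF (3), 3 to 4 against Δ22 (3) and 0 for DAF against Δ22. The lowest counts for iLuc and for DAF against iEF were those without replicate 1 and without replicate 2 of every condition, and that for WT-EF against iLuc was without replicate 2. Of 2080 recomputed log2 fold changes 1929 kept their side of the threshold, 110 lost a call, 41 gained one and 0 reversed a called direction. Of 100 recomputed mean levels 11 moved by more than 1 SD. The calls of CDKN1A, CDK6, CCND2 and CCNE2 in iLuc against iEF held in all 26 alternatives. The causes of the changed calls were not tested. CCND2 and CDKN1C rest on counts of 11 to 254 and of 10 to 53.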
